A study of Prunus persica with 25 samples.

Results

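Gene expression in peach vegetative buds was compared between 475 and 930 chilling units (CU) in 6 RNA-seq libraries of the 25 in the series. This was the last sampled interval of one cold season, from November to December. The members were chosen by their labels and column names alone: the 3 libraries at 930CU and the 3 at 475CU of the second sampling season, called year B. The buds were the central, vegetative buds of axillary triplets on field-grown trees of the cultivar 'Fantasia', freed of their outer scales, with no treatment other than the weather of that winter, and the biological replicates came from several trees. CU are the units of the Utah model, which counts hours of cold weighted by temperature. The 930CU collection is labelled Post770CU and was taken once the chilling requirement known for flower buds of this cultivar had been met. Time, day length, temperature and bud development moved together between the collections and cannot be told apart. The labels give total RNA for the 475CU libraries and polyA RNA for the 930CU libraries, with the same extraction and library kits, so RNA class and collection also cannot be told apart.

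Buds of temperate trees stop visible growth in autumn and need a period of cold before they can grow again. In peach, a tandem block of MADS-box genes named DORMANCY-ASSOCIATED MADS-BOX (DAM) is deleted or disrupted in the evergrowing mutant, which does not enter dormancy, and the related Short Vegetative Phase (SVP) genes encode similar transcription factors. Abscisic acid (ABA) generally holds buds at rest and gibberellins promote growth, while jasmonate is a lipid-derived hormone of defence, wounding and development whose JAZ repressors are themselves induced by the hormone.

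The 6 libraries held 39891412 to 71239880 counts (median 49901560.5) over 26873 genes. Chi-square per gene between replicates was 3.03 for A and B of 475CU, against 21.2 and 21.1 for each of them with C. At 930CU it was 2.88 for B and C, against 11 and 12.3 for A with each of them. No library was a copy of another, but whether the close pairs shared trees was not tested. In 475CU, libraries A and B stood apart from library C. LFY (PRUPE_5G140700), which in Arabidopsis gives floral meristems their identity, was at 31.7, 30.2 and 4.02 CPM in A, B and C (CPM are counts scaled to library size with TMM factors and set to a common total). A set of 9 genes, LFY among them, was more than 8-fold higher in flower than in vegetative buds at the Pre0CU collection, before chilling began. The set summed to 406, 380.3 and 35.1 CPM in A, B and C of 475CU and to 30.6, 32.0 and 30.2 CPM at 930CU. The fits without A and B given below leave them out because LFY was above 10 CPM in them. The shoot meristem genes STM (PRUPE_4G015200) and KNAT1 (PRUPE_1G416700) were detected in all 6 libraries, at 12.9 CPM or more. The lowest count among a gene and its 3 neighbours on each side had a median of 1.21 CPM in year B, against 0.00778 CPM in year A. Only 14 to 38 genes were at 0 per library of year B, against 4076 to 4756 in year A. Neighbouring genes with like counts were few in both years. Of pairs with at least 50 counts in every library, 1.29% lay within 10% of each other in year B and 0.125% in year A. This lowest count is called the local floor here, and its cause was not tested. Its share of a gene's counts is given beside each called gene for which it exceeded 25%.

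Genes that fell from 475CU to 930CU outnumbered those that rose. Of 26743 genes tested by edgeR's quasi-likelihood test with Benjamini-Hochberg adjustment, 4173 (15.6%) were called, which needed an FDR under 0.05 together with a change of more than 1.4-fold. These were 2914 genes lower at 930CU (10.9% of those tested) and 1259 higher (4.71%). The log2 fold change (930CU minus 475CU) had a median of 0.02 over all genes, -0.87 over the genes called lower and 0.66 over those called higher. Changes of more than 4-fold were seen in 154 genes called lower and 17 called higher. The 3 libraries of one group did not overlap with the 3 of the other in 4032 called genes, and in 48.6% of all genes tested. Without 475CU libraries A and B, where library C alone stood for 475CU and was assumed to vary like the other groups, 3093 genes (11.5%) were called, and 2573 of the 4173 calls remained in the same direction.

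All 7 genes of the DAM block were called lower at 930CU, against 10.9% of all genes tested, and neither SVP gene was called. Each of the 7 was without overlap between the groups, as were 48.6% of all genes tested. The study names DAM1 to DAM6, fewer than the 7 identifiers of the block, so 7 is a count of identifiers and not of DAM genes. The genes are given by identifier only, and DAM numbers are not assigned here. The median log2 fold change of the 7 genes was -0.83, against 0.02 over all genes. In tissue measured in bulk, fewer cells of a type and less RNA per cell cannot be told apart, here and in all that follows.

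The largest fall in the block was that of PRUPE_1G531600. It was measured at 587, 607 and 615 CPM in libraries A, B and C at 475CU and at 180.2, 182 and 176 CPM at 930CU. Its log2 fold change was -1.75 ± 0.05 (SE, n = 3 against 3, edgeR FDR = 4.13e-11), or 3.36-fold lower. At 930CU it lay near the level of the Pre0CU collection, 179, 175 and 188 CPM, after 719.7, 710.1 and 753 CPM at 200CU. The most abundant member in counts, PRUPE_1G531700, stood at 1154, 1166 and 1358 CPM at 475CU and at 467, 428 and 417 CPM at 930CU. No 930CU library came near the lowest at 475CU. Its log2 fold change was -1.49 ± 0.07 (edgeR FDR = 5.55e-09), and at Pre0CU it had been at 616, 622 and 656 CPM.

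The other 5 members of the block fell less. PRUPE_1G531500 went from 244, 259 and 273 CPM to 190.1, 183 and 179 CPM, a log2 fold change of -0.49 ± 0.05 (edgeR FDR = 9.00e-06), and its 930CU level was well above the 50.4, 46.6 and 51.5 CPM of Pre0CU. PRUPE_1G531100 went from 68.1, 73.6 and 73.5 CPM to 40.6, 38.1 and 40.9 CPM, with a log2 fold change of -0.85 ± 0.05, and had been at 198, 194 and 201 CPM at Pre0CU. Library by library, both genes were lower in every 930CU library than in any at 475CU. PRUPE_1G531200, PRUPE_1G531300 and PRUPE_1G531400 had log2 fold changes of -0.78, -0.83 and -0.73. The local floor made up 83.5%, 69.0% and 41.1% of the counts of these 3 genes, and PRUPE_1G531200 was at only 0.0487, 0.0947 and 0.0858 CPM at 475CU of year A, so their year B values are uncertain. Tandem copies can also share reads. All 7 calls held without 475CU libraries A and B, where PRUPE_1G531600 had a log2 fold change of -1.79 and PRUPE_1G531700 one of -1.65. Scaling by library totals without TMM, or leaving out library C of 475CU, left 6 of the 7 called. With the lowest count among neighbours taken off each gene, an alternative chosen after seeing the data, all 7 were called lower.

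SVP1 (PRUPE_6G199000) was at 84.0, 91.2 and 102 CPM at 475CU and 79.6, 87.0 and 89.1 CPM at 930CU, with overlapping groups and a log2 fold change of -0.12 ± 0.08 (edgeR FDR = 0.267). SVP2 (PRUPE_8G069300) was at 119, 122 and 141 CPM and 156, 149 and 158 CPM. Its groups did not overlap, but its log2 fold change of 0.27 ± 0.07 (edgeR FDR = 0.00489) was under the fold threshold. The SVP genes thus gave no call in either direction. The 7 identifiers of the DAM block were all called lower, some of them with uncertain values because of the local floor.

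**Figure D1:**
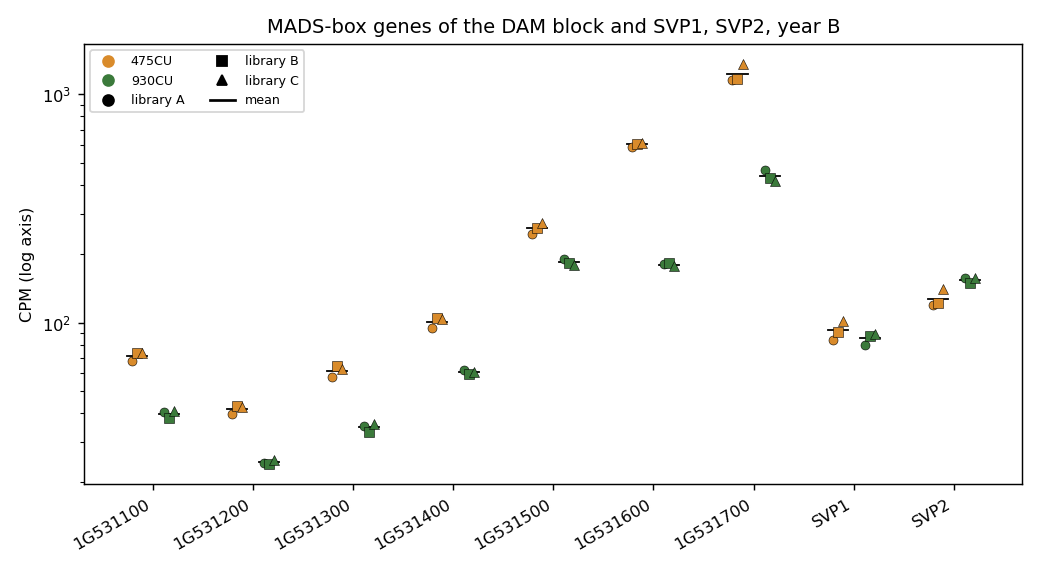
CPM (log axis) of the 7 genes of the DAM block and of SVP1 and SVP2 in the 3 libraries (A, B, C) at 475CU and the 3 at 930CU, with group means as bars. All 7 block genes lie lower at 930CU with no overlap, from 603 to 179.5 mean CPM in PRUPE_1G531600, while the SVP1 libraries overlap.

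Of 28 jasmonate genes listed by the study, 15 were called lower and 0 higher (10.9% and 4.71% of all genes tested), with a median log2 fold change of -0.66. DESeq2 and limma-voom also called 0 higher, and at an unadjusted p under 0.05 3 listed genes lay above 0, namely COI1, MYC4 and AFP/NINJA, all under the fold threshold. The study chose its hormone lists on genes differing in these buds, so the direction of a list is not independent evidence. Without 475CU libraries A and B, 8 were called lower, against 8.65% of all genes.

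Synthesis begins with lipoxygenases, which oxygenate linolenic acid in the plastid. LOX-likeB (PRUPE_6G324200) was at 52.1, 45.4 and 46.8 CPM at 475CU and 14.2, 17.8 and 14.6 CPM at 930CU. The groups stood far apart, with a log2 fold change of -1.63 ± 0.08 (edgeR FDR = 1.52e-08). LOX-likeC, LOX-likeD and LOX-likeE of the same tandem group fell by log2 fold changes of -0.68, -0.64 and -0.56, and LOX-likeA was not called at -0.35 (local floor 47.4%). The copies may share reads, but all 4 falls were also called from library C of 475CU alone.

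Allene oxide synthase (AOS) and allene oxide cyclase (AOC) carry out the next steps, of which the cyclase closes the ring of the hormone. AOC4 (PRUPE_3G239900) was at 365, 334 and 41.8 CPM at 475CU and 15.2, 28.6 and 32.4 CPM at 930CU. Libraries A and B of 475CU, those high in LFY, were far above library C, which was nearer to 930CU, and the groups did not overlap. The log2 fold change of -3.27 ± 0.57 (edgeR FDR = 4.58e-04) became -0.72 (FDR = 0.127) without those libraries. AOC1 (PRUPE_1G306100) had the same order of libraries, 239, 234 and 107 CPM against 94.3, 99.1 and 101 CPM, and its log2 fold change of -0.97 ± 0.21 (edgeR FDR = 0.00208) became -0.14 without A and B. AOS-like (PRUPE_8G110100) was called lower, with a log2 fold change of -1.21 from 6.04, 5.95 and 2.74 CPM at 475CU. The local floor made up 45.9% of its counts, and this call was lost too, at -0.39.

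OPR3, the peroxisomal reductase that commits the pathway to jasmonic acid, was lower in every 930CU library. OPR3 (PRUPE_3G039200) was at 115, 116 and 93.0 CPM at 475CU and 36.4, 36.3 and 35.3 CPM at 930CU, a log2 fold change of -1.59 ± 0.21 (edgeR FDR = 4.91e-05), 3.01-fold lower. Library C of 475CU was close to A and B here, and the change was -1.38 without A and B (FDR = 0.00393). At Pre0CU the gene had been at 608, 625 and 633 CPM. OPCL1 (PRUPE_1G386300), the ligase that activates the OPR3 product for beta-oxidation, was at 69.8, 65.5 and 31.1 CPM and 23.9, 21.6 and 21.0 CPM, a log2 fold change of -1.33 ± 0.22 that shrank to -0.51 but stayed called without A and B. ACX1B (PRUPE_7G200800), an acyl-CoA oxidase of beta-oxidation, was at 236, 222 and 82.0 CPM and 62.5, 75.4 and 75.8 CPM. Its log2 fold change of -1.34 ± 0.28 (edgeR FDR = 0.00191) became -0.21 without A and B, a lost call. ACX1A, JAR-like, which conjugates jasmonate to isoleucine in Arabidopsis, and JMT, a methyltransferase, were not called, at log2 fold changes of -0.14, -0.25 and -0.20 (local floor of JMT 92.3%).

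In signalling, the receptor subunit COI1 (PRUPE_2G246000) was not called, with 69.3, 74.6 and 76.9 CPM at 475CU and 85.9, 78.2 and 80.6 CPM at 930CU. MYC2 (PRUPE_5G035400), the bHLH factor that drives jasmonate-responsive genes, was at 87.7, 92.1 and 121 CPM and 53.1, 57.5 and 52.3 CPM. All 930CU libraries lay under the lowest at 475CU, and library C of 475CU was the highest. The log2 fold change of MYC2 was -0.89 ± 0.17 (edgeR FDR = 0.00126), and -1.17 without A and B.

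JAZ proteins repress MYC2, and 3 JAZ genes were called lower. JAZ2 (PRUPE_3G037800) was at 117, 114 and 75.9 CPM at 475CU and 16.2, 26.6 and 24.3 CPM at 930CU, a log2 fold change of -2.19 ± 0.29 (edgeR FDR = 6.14e-05), and -1.77 without A and B. JAZ10 (PRUPE_1G218500) was at 44.8, 43.8 and 12.2 CPM and 2.997, 8.07 and 6.74 CPM. Its library C lay between A and B and the 930CU libraries, and its log2 fold change of -2.48 ± 0.46 (edgeR FDR = 8.32e-04) became -1.04 (FDR = 0.149) without A and B. JAZ1 (PRUPE_7G194800), the most abundant of the JAZ genes in counts, fell by a log2 fold change of -0.53, also lost without those libraries. JAZ3, JAZ8, JAZ12 and JAZ-like were not called, at -0.027, -0.96, -0.29 and -0.099. MYC4 and AFP/NINJA, the adaptor of JAZ proteins, had log2 fold changes of 0.28 and 0.32, under the threshold. Of the genes that oxidise jasmonates, CYP94C (PRUPE_6G126400) was called lower at -2.18, but it was itself the lowest of its neighbours, so that the local floor equalled its counts. It was at 5.15, 4.75 and 4.31 CPM at 475CU and 0.813, 1.00 and 1.25 CPM at 930CU, and its log2 fold change stayed at -2.06 without A and B while the FDR rose to 0.208. JOX1 and CYP94B3 were not called, at -0.90 and -0.13.

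In year B the calls for AOC1, AOC4, ACX1B, AOS-like, JAZ1 and JAZ10 thus rested on the 475CU libraries that were also high in flower bud genes. In the separate libraries of year A, AOC4 (-0.87), ACX1B (-0.53), JAZ1 (-0.55) and JAZ10 (-1.63) were called lower at 770CU, and AOC1 and AOS-like were not called. At Pre0CU, AOC4 was higher in flower than in vegetative buds by a log2 fold change of 0.96 (edgeR FDR = 0.00341), and JAZ10 by 0.90 (FDR = 0.00637). The same value was 0.94 for AOS-like, 0.69 for ACX1B, 0.31 for JAZ1 and 0.20 for AOC1. For genes that stayed called it was 1.01 for OPR3, 0.54 for JAZ2, 0.54 for OPCL1 and 0.40 for MYC2. It was 0.28, 0.041, 0.41 and 0.33 for LOX-likeB, LOX-likeC, LOX-likeD and LOX-likeE. Whether RNA of flower buds contributed to the falls of the jasmonate genes was not tested. OPR3, the 4 LOX-like genes, JAZ2 and MYC2 were lower at 930CU than in each of the 3 libraries of 475CU, and stayed called without A and B.

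**Figure D2:**
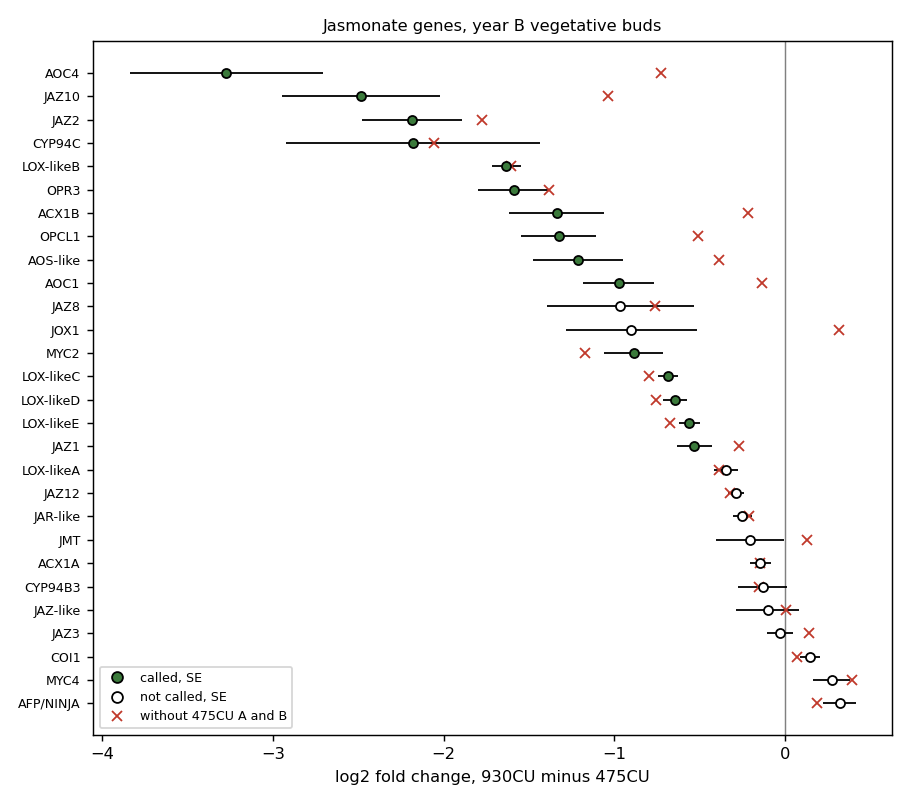
Log2 fold change (930CU minus 475CU) of the 28 listed jasmonate genes with SE; filled circles were called, and crosses give the value without 475CU libraries A and B. AOC4 moves from -3.27 to -0.72, while LOX-likeB stays near -1.61.

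Among 24 ABA genes, 3 were called higher and 7 lower, against 4.71% and 10.9% of all genes tested, with a median log2 fold change of -0.26. Without 475CU libraries A and B there were 4 and 7, against 2.89% and 8.65%. ABA1B, ABA2 and ABA3, which act before and after the cleavage of the carotenoid precursor, rose, and the cleavage gene NCED3 fell. ABA1 is the zeaxanthin epoxidase that supplies the carotenoid precursors, and ABA1B (PRUPE_7G133100) was at 55.2, 57.8 and 66.7 CPM at 475CU and 118, 109 and 116 CPM at 930CU. Every 930CU library exceeded every 475CU library, with a log2 fold change of 0.93 ± 0.07 (edgeR FDR = 4.24e-07). NCED3 (PRUPE_4G150100), the dioxygenase that cleaves the carotenoid and is held to limit ABA synthesis, was already low at 475CU, at 3.93, 3.33 and 4.79 CPM, and lower at 930CU, at 2.697, 2.22 and 2.90 CPM. It fell by a log2 fold change of -0.61 ± 0.17 (edgeR FDR = 0.0115), after 126, 121 and 122 CPM at Pre0CU. The low level was that of year B. In year A, NCED3 was at 44.7, 108.5 and 78.9 CPM at 475CU and 54.8, 61.5 and 86.2 CPM at 770CU.

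Genes of the last steps were higher. ABA2 (PRUPE_6G138600), the dehydrogenase that turns xanthoxin into ABA aldehyde, went from 19.4, 21.2 and 16.2 CPM to 35.7, 38.2 and 38.6 CPM, a log2 fold change of 0.99 ± 0.09 (edgeR FDR = 2.18e-06). ABA3 (PRUPE_4G138400), which makes the cofactor of the final oxidase, went from 33.1, 34.4 and 35.2 CPM to 55.5, 54.7 and 54.5 CPM, a log2 fold change of 0.68 ± 0.05 (edgeR FDR = 3.19e-07). Replicates of both genes lay close together and the groups far apart, and both calls held without A and B. The hydroxylase CYP707A2, which breaks ABA down, was not called at -0.25. The glucosyltransferase gene UGT71B6-likeB (PRUPE_3G184600) was called lower at -0.59, and UGT71B6-likeA was not, at 0.046 (local floor 38.6%), which became -0.55 and a call without A and B.

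Of 7 perception genes 3 were called lower, and of 11 genes the study lists under signalling 2 were called lower and 1, ABA1B, higher, against 10.9% of all genes lower and 4.71% higher. The signalling counts lay near those shares. ABI1 (PRUPE_7G220600), a phosphatase that shuts ABA signalling down, was at 168, 162 and 166 CPM at 475CU and 93.7, 92.4 and 91.2 CPM at 930CU, a log2 fold change of -0.84 ± 0.10 (edgeR FDR = 2.39e-05). ABI5 (PRUPE_7G112200), a bZIP factor that acts at the other end of the pathway, was at 11.3, 12.2 and 10.8 CPM and 6.40, 6.65 and 6.57 CPM, a log2 fold change of -0.81 ± 0.09 (edgeR FDR = 8.18e-06). Both falls were without overlap and held without A and B. The receptor gene PYL4 (PRUPE_6G284000) fell by -0.62 at a low level, 5.13, 4.31 and 3.29 CPM, of which the local floor made up 39.7%, and it was not called without A and B. PYL2 was not called (-0.41). CAR genes encode C2-domain proteins that bring receptors to membranes. CAR-likeB and CAR-likeE of one tandem group fell by -1.20 and -0.94, while CAR-likeA, CAR-likeC and CAR-likeD were not called (-0.044, -0.37 and -0.20). The kinase gene SnRK2.6/OST1 (-0.32) and the bZIP genes AREB1/ABF2 (-0.24), ABF1 (0.031) and AREB2/ABF4 (-0.22) were not called either, nor were SOAR1 (0.42), FLCY (-0.34) and ABA1A (-0.27). EAR1 was not called at 0.61 and was called higher without A and B, at 1.07, with a local floor of 35.3%. The local floor of ABF1 was 66.2%.

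Of 14 gibberellin genes, 2 were called higher and 4 lower, against 4.71% and 10.9% of all genes tested, with a median log2 fold change of 0.09. Of 6 synthesis genes 1 was called, and it was higher, and of 4 inactivation genes 3 were called, all lower. The difference between these roles was not tested. GA1 (PRUPE_8G239900), the copalyl diphosphate synthase that opens the pathway, was at 9.89, 10.4 and 11.1 CPM at 475CU and 23.7, 19.6 and 20.1 CPM at 930CU, a log2 fold change of 1.01 ± 0.10 (edgeR FDR = 5.16e-06), 2.02-fold higher. The next enzymes, KS and KO, lay under the fold threshold at 0.41 and 0.30, as did the late oxidases GA20ox1 (0.29), GA20ox2 (0.19) and GA3ox1 (-0.25), the last of which makes bioactive gibberellins.

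GA2ox enzymes inactivate gibberellins. GA2ox6 (PRUPE_1G111900) was at 102, 98.1 and 102 CPM at 475CU and 39.2, 40.5 and 41.3 CPM at 930CU, a log2 fold change of -1.32 ± 0.06 (edgeR FDR = 5.37e-09). The replicates differed by a few CPM at most and the groups by more than the whole 930CU level. GA2ox1 (PRUPE_4G150200) was at 8.42, 8.80 and 4.63 CPM and 1.69, 2.03 and 2.01 CPM, a log2 fold change of -1.92 ± 0.26 (edgeR FDR = 5.87e-05), and -1.28 without A and B. GA2ox2 (PRUPE_4G080700) was at 139.5, 139.5 and 184 CPM and 65.9, 88.4 and 89.5 CPM, a log2 fold change of -0.92 ± 0.15 (edgeR FDR = 3.62e-04). None of the 3 genes overlapped between the groups, and all 3 stayed called without A and B. CYP714A1, which inactivates gibberellins in another way, was not called (0.30) with all libraries and was called higher at 0.56 without A and B, at a level of which the local floor made up 88.2%.

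The receptor gene GID1B (PRUPE_8G249800) was at 337, 335 and 302 CPM at 475CU and 234, 219.6 and 220.2 CPM at 930CU, a log2 fold change of -0.53 ± 0.06 (edgeR FDR = 1.17e-05); without A and B it was -0.44, under the fold threshold. DELLA proteins are the repressors that the receptor removes. RGL1 (PRUPE_4G132100) was called higher, from 2.45, 2.98 and 3.27 CPM to 5.54, 6.42 and 5.35 CPM (log2 fold change 0.99 ± 0.15, edgeR FDR = 2.08e-04, local floor 26.1%). RGA and RGL2, the more abundant DELLA genes in counts, were not called, at -0.25 and -0.0044. The GASA1 and GASA6 genes, named for their induction by gibberellin, were not called at -0.0012 and 0.30.

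**Figure D3:**
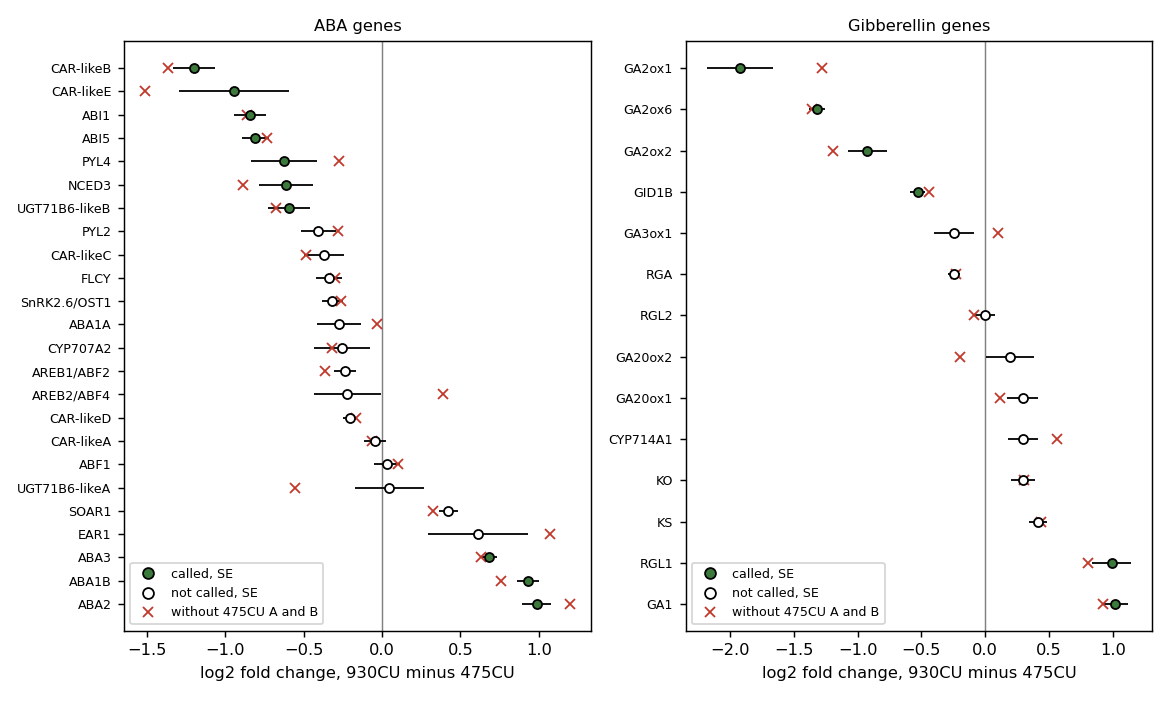
Log2 fold change (930CU minus 475CU) with SE of 24 ABA genes and 14 gibberellin genes; filled circles were called, and crosses give the value without 475CU libraries A and B. ABA2, ABA1B and ABA3 lie right of 0 and the 3 GA2ox genes left of it with either set of libraries.

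Of 23 meristem genes, 2 were called higher and 4 lower, against 4.71% and 10.9% of all genes tested, with a median log2 fold change of 0.09, and the 17 others lay between -0.42 and 0.46. STM, which keeps the shoot meristem undifferentiated, was at 16.8, 16.2 and 12.9 CPM at 475CU and 15.5, 17.3 and 16.0 CPM at 930CU, with overlapping groups and a log2 fold change of 0.090 ± 0.10 (edgeR FDR = 0.549). KNAT1, a related homeobox gene, was called higher, from 41.2, 42.8 and 64.5 CPM to 81.2, 72.8 and 71.7 CPM (log2 fold change 0.60 ± 0.13, edgeR FDR = 0.00194). Library C of 475CU was closest to 930CU, and the call was lost without A and B, at 0.21. CLAVATA3/ESR (PRUPE_8G204100), of the peptide family that limits stem cells, fell from 20.9, 22.9 and 19.8 CPM to 15.7, 12.5 and 11.5 CPM (log2 fold change -0.69 ± 0.11, edgeR FDR = 2.81e-04). AGL20A (PRUPE_2G151200), a MADS-box gene that promotes flowering in Arabidopsis, fell from 439, 458 and 546 CPM to 341, 331 and 338 CPM (log2 fold change -0.51 ± 0.07). Both falls held without A and B. AS1, which acts in leaf primordia, was under the threshold at 0.46 and called higher without A and B, at 0.60. FRIGIDAlikeB was called higher at 0.55, at 2.997, 2.24 and 2.68 CPM at 930CU, of which the local floor made up 94.6%. YAO (PRUPE_4G089600), a nucleolar protein gene outside the meristem list, was called higher at 0.52 and was under the fold threshold without A and B. SPL9, CLF and KANADI1, which act in flowering, chromatin and organ polarity, were not called (0.40, -0.15 and -0.32).

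In year B the falls of the floral genes LFY and AGL79 rested on the high values of 475CU libraries A and B. LFY was at 31.7, 30.2 and 4.02 CPM at 475CU and 5.05, 4.95 and 5.09 CPM at 930CU, a log2 fold change of -2.12 ± 0.58 (edgeR FDR = 0.0104). Library C of 475CU was under all 3 libraries at 930CU, and without A and B the sign turned, to 0.31. A and B were left out because LFY was high in them, so the loss of its fall follows from that choice. AGL79 (PRUPE_3G249300) was at 15.3, 13.8 and 6.13 CPM at 475CU and 6.46, 5.33 and 5.27 CPM at 930CU, and its log2 fold change of -1.05 ± 0.29 (edgeR FDR = 0.0117) was -0.13 without A and B. In the separate libraries of year A, AGL79 was called lower at 770CU, from 16.0, 24.0 and 11.5 CPM to 6.26, 6.62 and 4.52 CPM (log2 fold change -1.56, edgeR FDR = 0.00317). SEP1 (PRUPE_1G290500), a floral organ gene, and AGL20B were at or under 2.68 CPM in all 6 libraries (local floor 73.5% and 93.0%) and were not called. Of 272 genes more than 2-fold higher in flower than in vegetative buds at Pre0CU, 124 were called lower at 930CU and 8 higher (10.9% and 4.71% of all genes), with a median log2 fold change of -0.61. Without A and B these were 53 and 4 (8.65% and 2.89% of all genes then tested), with a median of -0.32. Of the 24 genes more than 4-fold higher in flower buds, LFY among them, 16 were called lower with A and B. Their median log2 fold change was -2.03, and -0.24 without A and B. Since A and B were left out by their LFY level, these shifts of flower bud genes are not independent of that choice. The labels give polyA RNA for the flower buds and total RNA for the vegetative buds at Pre0CU, so organ and RNA class cannot be told apart in the choice of these genes.

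**Figure D4:**
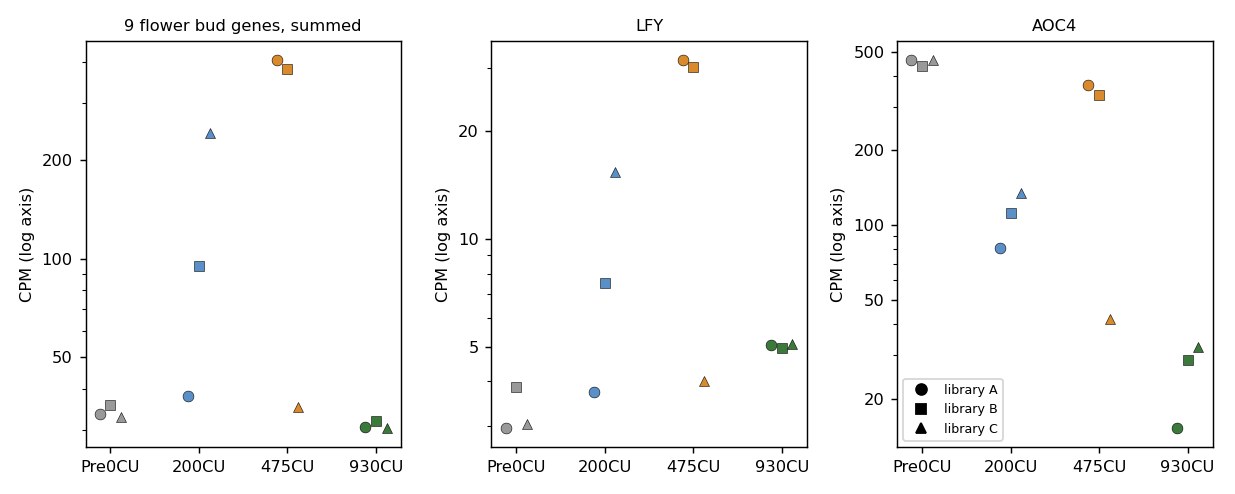
CPM (log axis) per library at the 4 collections of year B: the sum of 9 genes more than 8-fold higher in flower buds at Pre0CU, LFY, and AOC4. Libraries A and B of 475CU reach 406 and 380.3 summed CPM, library C 35.1, and the 930CU libraries 30.2 to 32.0.

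The largest changes, other than that of AOC4, lay outside the hormone lists. Genes were ranked among those called, with an average of 3 or more on the log2 CPM scale and without overlap between the groups. Of the 15 largest falls 4 had a name in the sources used here, and of the 15 largest rises 0 had. Besides the listed genes, these sources annotated only 1627 of the 26743 genes tested. The genes named from that annotation here were all of co-expression module V1, which the study reports as negatively correlated with chilling. The counts of named falls and rises are thus limited by the annotation at hand. PRUPE_1G237100, annotated as an acyltransferase of the HXXXD family, fell furthest: it was at 36.9, 36.5 and 58.8 CPM at 475CU and 1.46, 1.31 and 1.54 CPM at 930CU. The log2 fold change was -4.93 ± 0.20 (edgeR FDR = 1.62e-09), and the gene had been at 205, 206 and 205 CPM at Pre0CU. PRUPE_3G127600, annotated as an O-methyltransferase, went from 59.9, 54.4 and 39.9 CPM to 5.65, 4.28 and 4.95 CPM (log2 fold change -3.38 ± 0.16), and PRUPE_3G131500, a bHLH transcription factor, from 20.7, 19.2 and 15.7 CPM to 2.12, 1.73 and 2.08 CPM (log2 fold change -3.22 ± 0.30). These 3 falls held without A and B, with -5.36 for the acyltransferase gene. AOC4 was the other named gene of this set.

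Of the genes without a name, PRUPE_8G098600 fell from 18.8, 22.7 and 55.4 CPM to 1.93, 1.46 and 1.68 CPM after 2044, 1962 and 1937 CPM at Pre0CU. PRUPE_1G489400 fell from 51.0, 47.9 and 1.65 CPM to 1.24, 1.53 and 1.17 CPM. Its high libraries were A and B of 475CU, its local floor was 30.7%, and its log2 fold change went from -4.67 to -0.35 without them. It was 4.45 higher in flower buds at Pre0CU on the log2 scale. The largest rise was that of PRUPE_8G003700, from 3.48, 2.77 and 4.98 CPM to 53.4, 46.2 and 42.2 CPM, a log2 fold change of 3.66 ± 0.17 (edgeR FDR = 7.87e-09), 12.6-fold higher. PRUPE_1G038200 rose from 6.90, 7.54 and 9.88 CPM to 49.4, 41.7 and 41.4 CPM (log2 fold change 2.44 ± 0.17). No rise came near the size of the largest fall, and both rises held without A and B.

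Further annotated genes were chosen after their values were seen. The study annotated them in a module built on these samples, so their directions are not independent evidence. PRUPE_2G247800, an auxin influx carrier of the AUX/LAX family, was at 31.6, 30.7 and 27.1 CPM at 475CU and 5.03, 5.02 and 5.51 CPM at 930CU, with a log2 fold change of -2.52 ± 0.08 (edgeR FDR = 1.79e-10). Neighbouring beta-glucosidase genes PRUPE_2G198100 and PRUPE_2G198000 fell from 129, 127 and 86.1 CPM to 18.8, 19.8 and 20.4 CPM and from 87.2, 88.4 and 59.1 CPM to 16.3, 15.5 and 15.4 CPM. PRUPE_1G093800 and PRUPE_1G092500, annotated as mandelonitrile lyases, the enzymes that release cyanide from mandelonitrile, had log2 fold changes of -2.29 ± 0.10 and -2.07 ± 0.12. The first of these went from 203, 199 and 178 CPM to 34.5, 41.3 and 42.6 CPM. These gene families have close copies that may share reads.

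WRKY40 (PRUPE_3G098100), a factor of stress responses in Arabidopsis, went from 29.5, 29.3 and 25.8 CPM to 3.36, 5.88 and 5.78 CPM (log2 fold change -2.48 ± 0.32), with all 3 libraries of 475CU alike. The xyloglucan endotransglucosylase genes PRUPE_3G172000 and PRUPE_3G171800, whose enzymes remodel cell walls, had log2 fold changes of -2.06 and -1.88 (edgeR FDR = 0.0227 and 0.0438). Here library C of 475CU was the high one, at 5.79, 6.71 and 27.1 CPM for the first gene in A, B and C against 1.99, 3.41 and 3.96 CPM at 930CU, which is the reverse order to LFY. Among rises, the carotenoid cleavage dioxygenase gene CCD4 (PRUPE_1G255500) went from 5.203, 6.67 and 5.21 CPM to 10.5, 12.1 and 11.8 CPM (log2 fold change 1.01 ± 0.11), and the SBP-box factor SPL4 (PRUPE_3G139800) from 14.8, 15.7 and 13.4 CPM to 22.7, 25.1 and 23.8 CPM (log2 fold change 0.70 ± 0.11). Neither overlapped between the groups.

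The late step of the other season used separate samples: 3 libraries at 475CU and 3 at 770CU of year A, where the last interval ended earlier in chilling and the labels give total RNA for both collections. Of 20950 genes tested there, 2547 (12.2%) were called, 1719 lower (8.21%) and 828 higher (3.95%). Of the year B calls, 1361 were called in both years, which is 32.6% of the calls of year B and 53.4% of those of year A. They had the same direction in 1323 genes (1049 lower, 274 higher) and the opposite in 38. Of all genes with a value in both years 68.7% had the same sign, and of the genes called in year B 85.1%.

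In the DAM block, PRUPE_1G531600 was at 47.6, 51.2 and 53.2 CPM at 475CU and 13.0, 17.0 and 16.9 CPM at 770CU of year A, and PRUPE_1G531700 at 255, 265 and 249.7 CPM and 74.2, 81.7 and 61.6 CPM. Their log2 fold changes there, -1.70 and -1.82 (edgeR FDR = 2.53e-05 and 1.66e-05), lay beside -1.75 and -1.49 in year B, without overlap between groups in either year. Of the 6 block genes tested in year A, 4 were called lower (8.21% of all genes). One of these, PRUPE_1G531100, was at only 0.714, 0.947 and 1.03 CPM at 475CU and 0.657, 0.355 and 0.380 CPM at 770CU of year A. These lie far under its year B values, of which the local floor made up 21.2%. The gene was no longer called with the replicate letter as a block (log2 fold change -0.97, edgeR FDR = 0.0876). Of the jasmonate genes, 11 were called lower and 1 higher in year A, with OPR3 at -1.97, JAZ2 at -2.05, JAZ10 at -1.63 and MYC2 at -0.88. Of the genes called lower in year B, LOX-likeC (-0.43), LOX-likeD (-0.025), LOX-likeE (0.078), AOC1 (-0.27), AOS-like (-0.21) and OPCL1 (-0.41) were not called in year A. LFY was at 3.96, 5.25 and 3.09 CPM at 475CU of year A and 1.20, 1.54 and 2.53 CPM at 770CU, which gave a log2 fold change of -1.23 without a call (edgeR FDR = 0.166), and a call with the block (FDR = 0.00485).

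The difference between the late steps was tested in a fit of all 21 vegetative libraries, where 1719 of 26752 genes (6.43%) were called, 736 with a higher value in year B (2.75%) and 983 with a lower one (3.67%). For PRUPE_1G531600 the difference (year B minus year A) was -0.065 on the log2 scale (edgeR FDR = 0.834) and for PRUPE_1G531700 0.33 (FDR = 0.0996), and neither was called. For AOC4 the difference was -2.42 (FDR = 0.0207) with all libraries and 0.15 (FDR = 0.979) without 475CU libraries A and B of year B. ABA1B was called higher in year B alone, at 0.93 against 0.18 in year A, with a difference of 0.74 (edgeR FDR = 4.44e-04). ABA2, ABA3 and NCED3 were not called in year A either, at 0.81, 0.21 and -0.20, and their differences between the years were not called. ABA2 was called in year A with the replicate letter as a block, at 0.86. GID1B had opposite signs, -0.53 in year B and 0.24 in year A, with a difference of -0.78 (FDR = 3.40e-05). GA1 rose in both years, by 1.01 and 0.51, and GA2ox1, GA2ox2 and GA2ox6 fell in both.

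**Figure D5:**
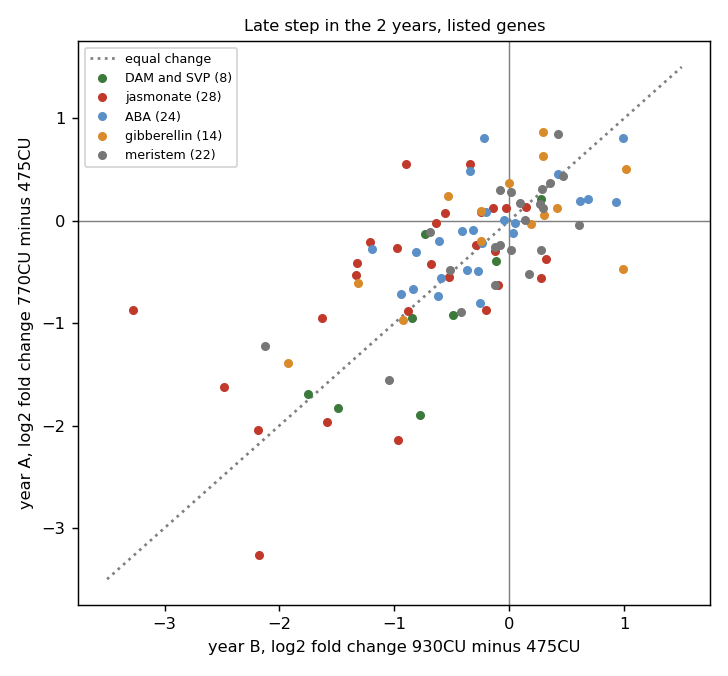
Log2 fold change of the late step in year A (770CU minus 475CU, vertical axis) against that in year B (930CU minus 475CU, horizontal axis) for the listed genes tested in both years, coloured by list; the dotted line marks equal change. PRUPE_1G531600 (-1.75 and -1.70) lies near the line and AOC4 (-3.27 and -0.87) far above it.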

How the data were processed

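The authors deposited counts per gene, which were used as deposited. Per the labels and the study's methods, reads were checked with FastQC, trimmed, aligned with STAR to the peach v2 genome and counted over exons with bedtools (version 2.30.1), with duplicates discarded; the use of strand is not given in the sources used here. Close gene copies, overlapping genes and antisense genes may therefore share counts. Even counts made up 49.4 to 50.5% of the values above 0 in year B and 96.0 to 96.4% in year A.

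Counts were tested in R 4.3.3 with edgeR 4.0.16 (filterByExpr, TMM, quasi-likelihood test, Benjamini-Hochberg adjustment) over the 12 vegetative libraries of year B, with the contrast 930CU minus 475CU. A call needed an FDR under 0.05 and more than 1.4-fold change. SE is the absolute log2 fold change over the square root of F. The late step of year A was fitted on 9 libraries, the difference between years on 21 and flower against vegetative buds at Pre0CU on 10. On simulated counts at the sizes of the main comparison, 75% of genes changed 1.5-fold, 95% of those changed 2-fold and 100% of those changed 4-fold were called. The changed genes were drawn above a minimum mean CPM, so these shares do not cover genes at low counts. All libraries of a group were given the same mean, so the split of 475CU libraries A and B from C was not simulated.

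Named genes are the members of the study's hormone, meristem and DAM lists and the 15 largest rises and 15 largest falls among calls that averaged 3 or more on the log2 CPM scale without overlap, of which at most 2 without a name are given per direction; further genes are named as chosen after their values were seen. Members and lists were chosen with earlier results of these data known. The libraries count as separate samples; p-values measure only the spread between them. Replicate letters paired the samples of year A (correlations of deviations 0.131, 0.151 and 0.281), where a block called 3170 genes, MYC4, ABA2 and PYL4 among them, and left FLCY uncalled. Alternatives used DESeq2 1.42.0 and limma 3.58.1, among others, and 2 on neighbouring counts and on the genes tested were chosen after seeing the data. Lists by product name and promoter motifs were not analysed here.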

Additional observations from a re-analysis of the deposited data

Results flagged for a closer look

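The late step differed between the years, by a test of the difference (year B minus year A, log2 scale, edgeR fit of 21 libraries, FDR below 0.05), in 25 of the 122 genes followed, against 6.43% of all genes tested. The genes followed include some chosen for their size of change in year B. Of these 25 differences 10 were also called without the 475CU libraries A and B of year B. End point, season and RNA class differ between the years, as do the share of even counts and the local floor, and these cannot be told apart.

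Among hormone genes, the difference was -2.42 for AOC4, -0.93 for OPCL1, -0.91 for LOX-likeA, -0.70 for LOX-likeB, 0.82 for MYC4 and 0.68 for AFP/NINJA in the jasmonate list. Without 475CU libraries A and B it was 0.15 for AOC4 and -0.091 for OPCL1, neither called, while LOX-likeA stayed called at -0.94. LOX-likeA was the one jasmonate gene called higher in year A (0.55).

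In the ABA list it was -0.93 for CAR-likeB, -0.84 for FLCY, 0.74 for ABA1B and -1.04 for AREB2/ABF4. ABA1B and FLCY stayed called without A and B, at 0.59 and -0.78. In the gibberellin list it was -0.72 for GA2ox6, 0.50 for GA1, -0.78 for GID1B and 1.45 for RGL1, and of these 4 GID1B stayed called without A and B, at -0.67. The other 3 kept differences of like size without a call, at -0.745 for GA2ox6, 0.41 for GA1 and 1.28 for RGL1. The meristem genes KNAT1 and CLAVATA3/ESR differed by 0.63 and -0.59.

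Among the largest changes, the unnamed PRUPE_8G003700 differed by 2.36, PRUPE_1G038200 by 1.60 and PRUPE_8G098600 by 2.74. The last of these fell in both years, by -7.01 in year A and -4.26 in year B. PRUPE_1G237100, the acyltransferase gene, differed by -2.01. Of the genes chosen after their values were seen, the auxin carrier gene PRUPE_2G247800 differed by -1.50, the beta-glucosidase genes PRUPE_2G198100 and PRUPE_2G198000 by -1.86 and -1.68, and the mandelonitrile lyase genes PRUPE_1G093800 and PRUPE_1G092500 by -1.64 and -0.99.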

How the results depend on the processing

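The 4173 calls of the main comparison became 2738 at an FDR under 0.01 with more than 1.5-fold change, and 544 at an absolute log2 fold change above 1.4. Other tools, filters, scalings and sets of libraries gave 3093 to 4612 calls, including 4612 of 21053 genes with the lowest neighbouring count taken off and 3884 of 20948 genes that passed the filter in year A, both alternatives chosen after seeing the data. Leaving out a replicate gave 3771 to 4584 calls. Replicate letters did not pair the libraries of year B (correlations -0.006, -0.003 and -0.021), and the replicate block gave 3892 calls, against 4043 without it in the same 6 libraries. In year A, 526 genes passed the log2 threshold of 1.4, and leaving out a replicate gave 1682 to 2372 calls, the lowest without replicate A of 475CU; its replicate block changed no other call on the lists than those named. The difference between years gave 439 calls at that threshold and 672 without 475CU libraries A and B. Of 2187 values of 122 named genes, 2006 kept their direction and side of the threshold, 49 changed sign without being called either way (15 of them without 475CU libraries A and B), 115 lost a call and 15 gained one. Of the values called with all libraries or under the alternative, 2 turned, both without 475CU libraries A and B, which were left out by their LFY level. LFY turned to 0.31, no longer called, which follows from that choice. UGT71B6-likeA turned to -0.55, now called, and the cause was not tested. Counting error was small beside the spread between libraries, but genes of a few CPM in year B are limited by the local floor.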
